A study of Mus musculus with 12 samples.

Results

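In sorted mouse kidney cells, 626 genomic loci were chosen because their RNA was plentiful in one control population and scarce in the other. The series compares control and mutant newborn kidneys, and the control and mutant cells were each sorted into a low and a high population. A locus is a stretch of 1 strand covered by overlapping annotated transcripts on chromosomes 1 to 19, and its level is CPM, the fragments assigned to it scaled to a library total of 1000000. A locus was kept if it reached at least 5 CPM in all 4 control low libraries and if its control low mean was at least 8 times its control high mean. Of 25677 autosomal loci (26699 in all), 8382 reached the CPM minimum in control low and 626 (7.47% of these) also met the fold. The members were therefore chosen by their levels in the 6 control libraries, so the difference between control low and control high describes the choice and carries no test. The mutant libraries played no part in the choice.

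All 12 libraries came from mice at postnatal day 0 and are described as fetal kidney cells with an R26R-tdTomato reporter, a Cre-activated red fluorescent protein. Cells expressing Six2, the transcription factor that marks nephron progenitors, were isolated by fluorescence-activated sorting, and RNA was amplified from low input with a full-length cDNA kit. The groups were control low (4 libraries), control high (2), mutant low (4) and mutant high (2). The titles give low and high expression without naming the signal, and the title of the series names Eed, a core subunit of Polycomb repressive complex 2 (PRC2), while the sample labels name neither the mutant allele nor the Cre driver. Nothing in the labels says whether libraries of a group came from separate animals, so the p-values measure the spread between libraries, which may be technical.

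As background, nephron progenitors are the mesenchymal cells capping the ureteric bud tips of the fetal kidney. They self-renew under Six2 and its partners and, on receiving Wnt signals, turn into epithelial vesicles that form the tubules and podocytes. Progenitors divide often and are used up shortly after birth in the mouse, while their tubular descendants switch on transporters. PRC2 places trimethylation on lysine 27 of histone H3 and keeps developmental genes silent.

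Sequences upstream of 7 members are shown as a description. The members are Six2, the defining progenitor gene, then the 3 largest falls and the 3 largest rises between control low and mutant low cells. These falls and rises are among members with exactly 1 RefSeq start on chromosomes other than 18. Each run is the 250 bases before the start, 5′ to 3′ on the gene's strand, from RefSeq (GRCm38.p6), with CG dinucleotides in capitals. The first is Six2 on the minus strand at chr17:85688255-85688504, with 26 CG dinucleotides.
Six2: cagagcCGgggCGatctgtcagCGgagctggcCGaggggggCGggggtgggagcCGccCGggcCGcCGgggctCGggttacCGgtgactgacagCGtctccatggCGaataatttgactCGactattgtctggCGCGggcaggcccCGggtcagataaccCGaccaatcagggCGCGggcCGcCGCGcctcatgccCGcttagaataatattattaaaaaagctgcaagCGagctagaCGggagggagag
The 3 falls were in Traf1, which encodes an adaptor of tumour necrosis factor receptors (chr2:34961773-34962022, minus strand), Bmper, which encodes a secreted regulator of bone morphogenetic proteins (chr9:23222826-23223075, plus strand), and Nell1, which encodes a secreted glycoprotein (chr7:49975100-49975349, plus strand).
Traf1: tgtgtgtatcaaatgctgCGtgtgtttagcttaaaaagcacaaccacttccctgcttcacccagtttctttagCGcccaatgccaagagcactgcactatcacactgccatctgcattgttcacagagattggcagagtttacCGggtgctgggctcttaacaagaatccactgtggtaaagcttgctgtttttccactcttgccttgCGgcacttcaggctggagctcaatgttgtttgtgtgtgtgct
Bmper: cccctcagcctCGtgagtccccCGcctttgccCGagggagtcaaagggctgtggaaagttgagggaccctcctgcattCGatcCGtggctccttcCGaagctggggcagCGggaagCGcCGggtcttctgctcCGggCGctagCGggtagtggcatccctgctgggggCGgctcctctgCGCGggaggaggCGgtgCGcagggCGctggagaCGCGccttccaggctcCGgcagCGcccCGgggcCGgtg
Nell1: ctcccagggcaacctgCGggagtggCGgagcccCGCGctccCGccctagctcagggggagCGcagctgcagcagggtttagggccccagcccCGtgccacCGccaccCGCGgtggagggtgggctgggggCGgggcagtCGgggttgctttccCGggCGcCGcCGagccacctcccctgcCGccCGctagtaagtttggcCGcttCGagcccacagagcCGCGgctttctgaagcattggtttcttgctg
The 3 rises were in Oxtr, the oxytocin receptor (chr6:112489826-112490075, minus strand), Sfrp2, which encodes a secreted Wnt-binding protein (chr3:83766071-83766320, plus strand), and Adgra1, an adhesion G protein-coupled receptor (chr7:139833924-139834173, plus strand).
Oxtr: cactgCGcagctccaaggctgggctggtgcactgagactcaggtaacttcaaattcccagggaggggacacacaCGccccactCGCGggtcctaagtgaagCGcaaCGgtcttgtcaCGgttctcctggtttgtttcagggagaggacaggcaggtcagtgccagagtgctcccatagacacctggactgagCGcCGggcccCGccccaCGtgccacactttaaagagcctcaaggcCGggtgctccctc
Sfrp2: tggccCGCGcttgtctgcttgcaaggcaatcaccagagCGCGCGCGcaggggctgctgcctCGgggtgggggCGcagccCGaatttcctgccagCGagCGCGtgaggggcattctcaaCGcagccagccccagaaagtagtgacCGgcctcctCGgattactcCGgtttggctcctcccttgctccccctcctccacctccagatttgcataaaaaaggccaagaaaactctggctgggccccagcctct
Adgra1: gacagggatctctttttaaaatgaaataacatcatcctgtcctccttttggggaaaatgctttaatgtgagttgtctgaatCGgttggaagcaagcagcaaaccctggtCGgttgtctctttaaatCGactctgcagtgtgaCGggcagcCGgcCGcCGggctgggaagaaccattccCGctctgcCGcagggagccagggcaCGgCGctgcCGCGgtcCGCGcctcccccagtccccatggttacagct
The window of Traf1 held 4 CG dinucleotides against 24 in that of Bmper, 22 in that of Nell1, 12 in that of Oxtr, 16 in that of Sfrp2 and 15 in that of Adgra1, so CG-rich and CG-poor starts occurred among falls and CG content did not separate the printed falls from the printed rises.

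Library totals ran from 4549011 to 12365078 fragments. Mitochondrial transcripts took 4.51% and 10.3% of the control high libraries and 0.494% to 1.96% of the other 10. Eed, which is not a member, stood at 13.2 to 16.7 CPM in control low and 4.98 to 12.3 in mutant low, groups that did not overlap, yet the difference did not pass the test (log2 fold change -0.74, adjusted p = 0.107, edgeR). In the high cells Eed stood at 6.72 and 7.03 CPM in control and 5.26 and 7.58 in mutant (log2 fold change -0.57, adjusted p = 0.291, edgeR). Where in the gene the mutation lies is not stated, so gene-wide Eed fragments are a weak check of the labels.

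The 626 loci took up 9.57% ± 0.529 (SD, n = 4) of the fragments in control low and 9.31% ± 0.444 (SD, n = 4) in mutant low, with 8.85% to 10.1% and 8.91% to 9.89% in single libraries. In mutant high they took up 3.66% and 4.36%, and in control high 0.747% and 0.568%. Mutant low libraries thus overlapped control low libraries, while both mutant high libraries lay below every low library and above both control high libraries. The median member stood at 50.04 CPM in control low, 3.25 in control high, 48.8 in mutant low and 20.1 in mutant high (medians over loci of the group means). These are bulk libraries, so fewer cells of a type and less RNA per cell cannot be told apart.

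**Figure D1:**
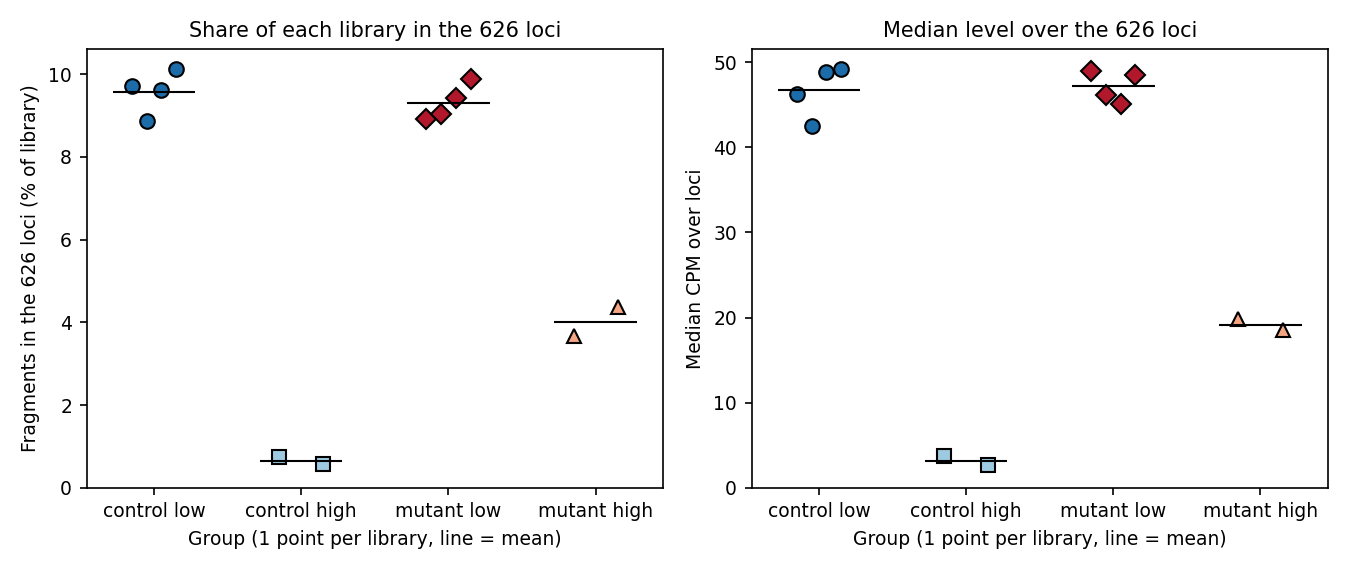
Share of each library's fragments that fell in the 626 loci (left, percent) and median CPM over the 626 loci (right), with 1 point per library and a line at the group mean. Control low and mutant low libraries overlap between 8.85% and 10.1%, mutant high libraries sit at 3.66% and 4.36%, and control high libraries sit at 0.747% and 0.568%.

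Whether the members also separate low from high cells in the mutant is the comparison the rule did not use. Of the 626 members, 441 (70.4%) were lower in mutant high than in mutant low and 0 were higher (edgeR quasi-likelihood F test, Benjamini-Hochberg adjusted p under 0.05 over 13749 loci). Across all loci tested 13.2% were called lower and 19.0% higher, and among the 7756 loci with the same CPM minimum that were not members 14.4% were lower and 12.9% higher. The median member changed by -1.39 on the log2 scale (10th and 90th percentiles -2.36 and -0.37) against -0.03 over all loci tested. No member was higher at an unadjusted p under 0.05 either, and DESeq2 and limma-voom also called 0 higher, with 461 and 440 lower. In 486 members (77.6%) both mutant high libraries lay below all 4 mutant low libraries, against 21.2% of all loci tested. With only 1 mutant high library the count fell to 274 without replicate 1 and to 324 without replicate 2.

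The low-to-high ratio was nevertheless smaller in the mutant than in the control for 623 of the 625 members with both ratios. The median ratio of means was 14.0 between the control populations, where the rule set a minimum of 8, and 2.53 between the mutant populations, where nothing was set (10th percentile 1.26, 90th percentile 4.92). In the mutant, 418 members (66.8%) kept a ratio of at least 2, 119 a ratio of at least 4 and 14 a ratio of at least 8, while 20 had a ratio under 1. When the rule itself was applied to the mutant libraries it picked 11 loci, 10 of which were members (1.6% of the members and 90.9% of the 11). A set chosen for a large ratio in 1 pair of groups tends to show a smaller one elsewhere, and how much of the gap this accounts for was not tested.

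**Figure D2:**
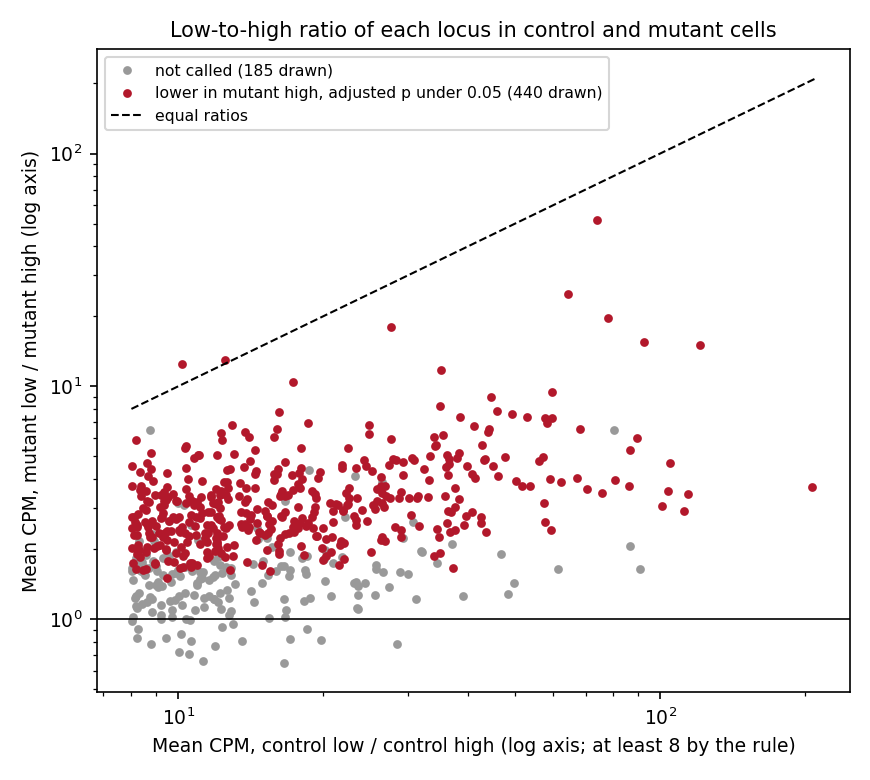
Ratio of mean CPM, low over high cells, in control (horizontal, log axis) and mutant (vertical, log axis) for 625 members, with members called lower in mutant high in red and a dashed line at equal ratios; 1 member at 0 in control high has no ratio. Nearly all points lie under the dashed line and most lie above a mutant ratio of 1, with a median of 2.53.

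Members with a larger control ratio were called lower in mutant high more often. Among 354 members with a control ratio of 8 to 16, 64.4% were called (median log2 fold change -1.22), among 174 with 16 to 32 it was 71.8% (-1.47), and among 98 with 32 or more it was 89.8% (-2.08). At the edge of the rule, Prim2, Adra1a and Skida1 lay just inside with control ratios of 8.005, 8.008 and 8.009, and Wdr6 and Prkar2b just outside with 7.979 and 7.994. The mean CPM of Prkar2b was 70.5 in mutant low and 32.2 in mutant high, and that of Prim2, a DNA primase subunit, was 130.3 and 52.7.

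Between control high and mutant high, 496 members (79.2%) were higher in the mutant and 0 lower (edgeR, with 0 lower at an unadjusted p under 0.05 and 0 by DESeq2 or limma-voom), against 16.3% and 11.2% of all loci tested. The rule chose members for low control high values, which favours this direction, so nothing is read from that count. Both mutant high libraries lay below all 4 control low libraries for 479 members (76.5%, against 23.8% of all loci tested). The rule also chose members for high control low values, which favours that order, so nothing is read from this count either.

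Genes of the nephron progenitor were prominent by the rule. Of 14 listed markers located in the file, 9 on chromosomes 1 to 19 reached the CPM minimum. All 9 were members, beside 7.47% of all loci on these chromosomes that reached it. Cited1, a further marker, also reached the minimum and the fold but lies on chromosome X, which the rule leaves out. In the mutant, 8 of the 9 members were lower in the high than in the low population, beside 70.4% of all members and 13.2% of all loci tested, with a median log2 fold change of -2.0 against -0.03 over all loci. Over all 14 markers, 9 were lower in mutant high, 4 fell in mutant low and 2 rose. In mutant low 3.21% of all loci tested fell and 4.82% rose. Cited1, a transcriptional coregulator of uninduced progenitors, stood at 36.9, 33.6, 23.1 and 19.2 CPM in control low and 6.04, 7.23, 1.12 and 2.76 in mutant low (log2 fold change -2.78, SE 0.41, adjusted p = 0.000529), and its 4.30 and 4.88 CPM in mutant high gave no call against mutant low (log2 fold change 0.14, SE 0.49, adjusted p = 0.857). Six2 (chr17:86083607-86087594 in mm9, minus strand) stood at 2078, 1722, 1466 and 1869 CPM in control low and 48.8 and 13 in control high. Mutant low held 806, 819, 709 and 959.8 and mutant high 108 and 118. All 4 mutant low libraries therefore lay under all 4 control low libraries, and both mutant high libraries lay between the control high and the mutant low values. Mutant high against mutant low gave a log2 fold change of -2.91 (SE 0.44, adjusted p = 0.000143). Between control low and mutant low, Six2 fell by 1.10 on the log2 scale (SE 0.31, adjusted p = 0.0397, edgeR), a call lost without any 1 of control low replicates 1, 2 and 4 and mutant low replicates 1, 2, 3 and 4 (adjusted p 0.0615 to 0.111).

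Eya1, which encodes the phosphatase and coactivator that works with Six2, followed the same order. Its CPM was 990.4, 795, 669.5 and 835 in control low and 21.8 and 2.42 in control high. Mutant low held 429, 416, 322 and 397 and mutant high 51.8 and 67.1. Mutant low libraries again lay under all control low libraries, but that difference did not pass the test (log2 fold change -1.07, SE 0.40, adjusted p = 0.133), while the one between mutant high and mutant low did (log2 fold change -2.75, SE 0.56, adjusted p = 0.00211). Sall1, a zinc-finger regulator needed for the progenitor pool, stood at 347, 333, 427 and 353 CPM in control low and 46.2 and 31.9 in control high. Mutant low held 385, 371, 293 and 348 and mutant high 111 and 115. The low groups of Sall1 overlapped (log2 fold change -0.06, SE 0.18, adjusted p = 0.891), and mutant high was lower (log2 fold change -1.67, SE 0.24, adjusted p = 8.48e-05).

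Robo2, the Slit receptor that limits the site of ureteric budding, measured 285, 350.3, 392 and 302 CPM in control low and 20.6 and 9.23 in control high. Mutant low held 195, 179, 112 and 169 and mutant high 57.7 and 36.5. Robo2 fell in mutant low against control low (log2 fold change -1.02, SE 0.24, adjusted p = 0.014) and again in mutant high against mutant low (log2 fold change -1.84, SE 0.32, adjusted p = 0.000479). Crym, which encodes a thyroid hormone-binding crystallin and marks progenitors, had 107, 78.3, 61.1 and 84.5 CPM in control low and 4.00 and 4.4 in control high. Mutant low held 24.0, 33.1, 5.28 and 16.4 and mutant high 5.48 and 3.73. Its fall in mutant low cells was the largest of the 9 markers (log2 fold change -2.12, SE 0.37, adjusted p = 0.00247). Mutant high fell further (log2 fold change -2.08, SE 0.51, adjusted p = 0.00644), with an adjusted p of 0.0815 on omitting mutant high replicate 2.

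Gdnf and Tmem100 did not follow Six2 in the low cells. Gdnf, the growth factor that drives ureteric bud branching, stood at 22.9, 30.5, 34.8 and 28.1 CPM in control low and 32.7, 28.9, 30.1 and 30.0 in mutant low, groups that overlapped (log2 fold change 0.08, SE 0.25, adjusted p = 0.888). It fell to 1.72 and 2.31 in mutant high (log2 fold change -3.96, SE 0.40, adjusted p = 3.72e-06) and stood at 0.48 and 0 in control high. Tmem100, a membrane protein gene of the cap mesenchyme, rose instead, from 55.6, 26.1, 48.0 and 25.6 CPM in control low to 164, 128, 129 and 157 in mutant low (log2 fold change 1.92, SE 0.27, adjusted p = 0.000435), with no overlap between the groups. It measured 55.5 and 95.4 in mutant high and 1.12 and 1.10 in control high. The lower value in mutant high passed the test (log2 fold change -0.98, SE 0.34, adjusted p = 0.0385), a call lost without any 1 of mutant high replicate 1 and mutant low replicates 1, 3 and 4 (adjusted p 0.0581 to 0.326).

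Hoxa11, a homeobox gene of the metanephric mesenchyme, and Itga8, the integrin chain needed for Gdnf expression, were the other markers. Hoxa11 had 132, 89.9, 121 and 175 CPM in control low and 8.00 and 3.96 in control high. Mutant low held 71.4, 71.4, 90.9 and 105 and mutant high 41.7 and 39.6 (log2 fold change -1.13, SE 0.35, adjusted p = 0.0229 for mutant high against mutant low), a call lost without any 1 of mutant high replicates 1 and 2 and mutant low replicate 4 (adjusted p 0.0559 to 0.118). It overlaps its antisense gene Hoxa11os, also a member, and strand is not stated for the counting, so reads of the pair may not be told apart. Itga8 spread widely, with 37.9, 36.3, 18.2 and 83.1 CPM in control low and 2.24 and 1.54 in control high. Mutant low held 76.2, 25, 12.1 and 13.8 and mutant high 5.48 and 9.90. Itga8 passed neither test (log2 fold change -2.0, SE 0.80, adjusted p = 0.0754 for mutant high against mutant low).

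**Figure D3:**
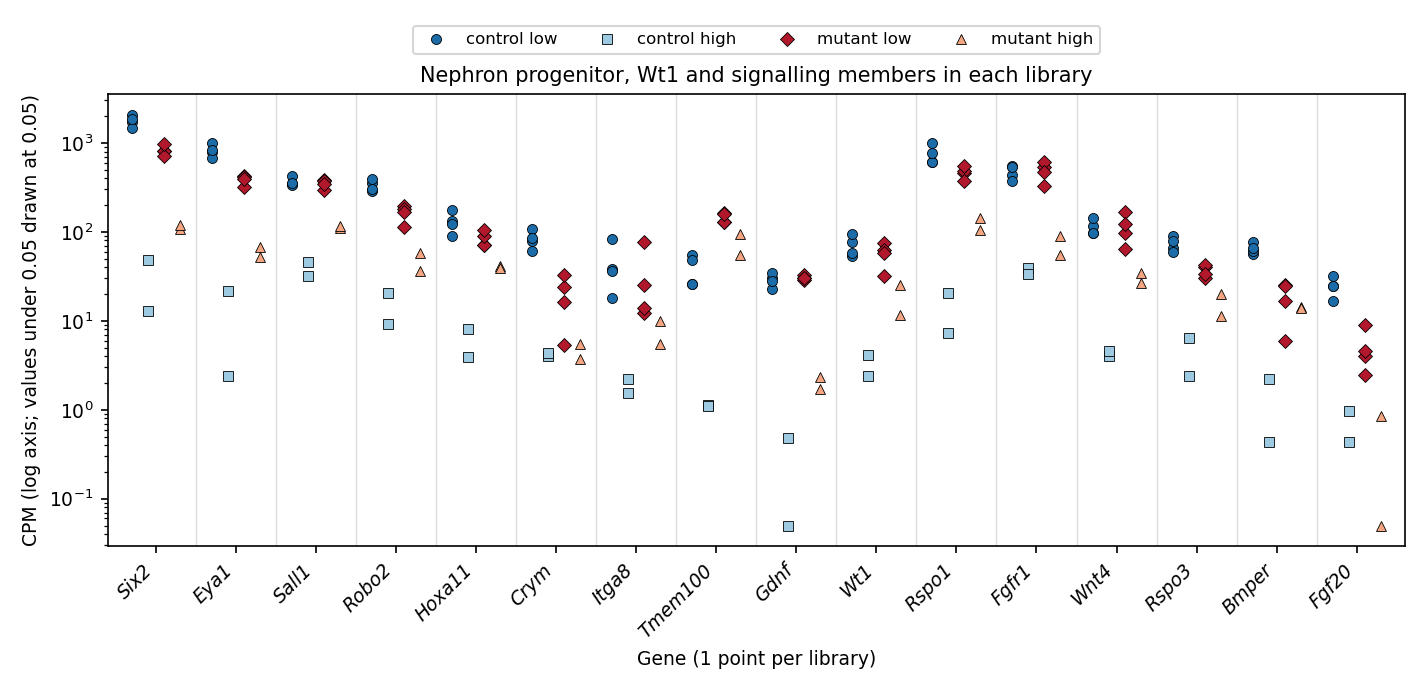
CPM (log axis) of 16 members in each of the 12 libraries, with 1 symbol per library and groups side by side. Mutant high points lie between the control high and mutant low points for most genes, for Six2 at 108 and 118 CPM between 48.8 and 709, and Tmem100 is the 1 gene here whose mutant low libraries all lie above control low.

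The gene families of Six2 and Eya1 held 3 more members, Six3, Eya2 and Eya4, grouped after their values were seen. All 5 were lower in mutant high than in mutant low (70.4% of all members and 13.2% of all loci were). Of the 5, 2 (Six2 and Eya4) fell in mutant low against control low, beside 8.31% of all members and 3.21% of all loci. Of the 9 tested genes of these families, 7 were lower in mutant high, and 2 fell and 1 rose in mutant low. Six3 lies beside Six2 and stood at 393, 369, 322 and 452 CPM in control low and 13.1 and 4.4 in control high. Mutant low held 184, 215, 392 and 275 and mutant high 46.2 and 37.7. The low groups of Six3 overlapped at 1 library (log2 fold change -0.48, SE 0.33, adjusted p = 0.458), and mutant high fell by 2.77 on the log2 scale (adjusted p = 0.000379, edgeR). Eya4 measured 36.3, 28.9, 33.9 and 29.4 CPM in control low and 16.1, 18.8, 12.7 and 10.3 in mutant low (log2 fold change -1.15, SE 0.31, adjusted p = 0.0307), a call lost without any 1 of control low replicates 1, 2, 3 and 4 and mutant low replicates 1, 3 and 4 (adjusted p 0.0505 to 0.111). Mutant high held 4.51 and 4.63 CPM of Eya4 (log2 fold change -1.69, SE 0.42, adjusted p = 0.00657), with an adjusted p of 0.0664 on omitting mutant high replicate 1 and of 0.0501 on omitting mutant high replicate 2. Eya2 went the other way between low groups without passing the test, with 156, 146, 219 and 209 CPM in control low and 191, 202, 242 and 271 in mutant low, and stood at 103 and 98.6 in mutant high (log2 fold change -1.24, SE 0.35, adjusted p = 0.015), with an adjusted p of 0.0942 on omitting mutant high replicate 1 and of 0.0892 on omitting mutant high replicate 2.

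Signalling genes made up 8 members of a list of 21, of which 18 were located and tested. The 8 were Fgf20, Fgfr1, Gdnf, Rspo1, Rspo3, Wnt4, Bmper and Robo2. Of these, 7 were lower in mutant high than in mutant low, and 4 (Fgf20, Bmper, Robo2 and Rspo3) fell in mutant low against control low, with a median of -0.83 over the 8 against -0.06 over all loci tested. Among all members these shares were 70.4% and 8.31%, and among all loci 13.2% and 3.21%. Over the 18 tested genes of the list, 9 were lower and 5 higher in mutant high. In mutant low 4 of the 18 fell and 3 rose, with a median of 0.15. The 8 members were chosen for high control low values, which favours lower values in mutant low. Nothing is therefore read from the gap between their median and that of the list. Among the ligands, Fgf20, a fibroblast growth factor that sustains progenitors, stood at 32.3, 24.8, 24.7 and 16.7 CPM in control low and 0.96 and 0.44 in control high. Mutant low held 4.03, 9.08, 2.44 and 4.63 and mutant high 0.859 and 0. Every mutant low library lay below every control low library (log2 fold change -2.31, SE 0.44, adjusted p = 0.00356), and mutant high was at or near 0 (log2 fold change -3.44, SE 0.73, adjusted p = 0.00235). The receptor gene Fgfr1 showed no such change between low groups, with 433, 375, 548 and 532 CPM in control low and 539, 329.8, 612 and 471 in mutant low (log2 fold change 0.08, SE 0.25, adjusted p = 0.898). It was lower in mutant high at 88.7 and 54.8 (log2 fold change -2.85, SE 0.36, adjusted p = 2.76e-05), next to 39.5 and 33.4 in control high.

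R-spondins, secreted proteins that strengthen Wnt signals, were 2 of the members. Rspo1 measured 610.2, 607, 995 and 761 CPM in control low and 20.5 and 7.25 in control high. Mutant low held 454, 488, 549 and 371 and mutant high 106 and 145. The low groups did not overlap but did not pass the test (log2 fold change -0.65, SE 0.29, adjusted p = 0.221), and mutant high was lower than mutant low (log2 fold change -1.95, SE 0.39, adjusted p = 0.0016). Rspo3 held 90.5, 65.1, 58.7 and 79.4 CPM in control low and 6.40 and 2.42 in control high. Mutant low held 40.1, 42.0, 30.3 and 33.4 and mutant high 11.4 and 20.1. Its fall between low groups passed (log2 fold change -1.01, SE 0.27, adjusted p = 0.0315), a call lost without any 1 of control low replicates 1 and 4 and mutant low replicates 1, 3 and 4 (adjusted p 0.0736 to 0.0902). The fall to mutant high passed as well (log2 fold change -1.24, SE 0.35, adjusted p = 0.015), with an adjusted p of 0.183 on omitting mutant high replicate 1. Wnt4, the ligand that starts the turn to epithelium, had 96.8, 117, 143 and 97.5 CPM in control low and 4.00 and 4.62 in control high. Mutant low held 168, 96.2, 64.7 and 122 and mutant high 34.2 and 26.5 (log2 fold change -0.02, SE 0.23, adjusted p = 0.972 between low groups and log2 fold change -1.92, SE 0.31, adjusted p = 0.000255 in mutant high against mutant low). It was the 1 member among 7 listed commitment genes, all of them tested. Of the 7, 4 rose and 0 fell in mutant low, with a median log2 fold change of 1.68. Over all loci tested, 4.82% rose and 3.21% fell. In mutant high against mutant low, 1 of the 7 was lower and 0 were higher.

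Bmper stood apart among the signalling members, since its mutant populations did not differ beyond their spread. It had 56.3, 60.3, 77.7 and 65.0 CPM in control low and 2.24 and 0.44 in control high. Mutant low held 25.1, 24.5, 6.00 and 16.6 and mutant high 14.2 and 14.0. Mutant low lay below control low in all libraries (log2 fold change -1.89, SE 0.35, adjusted p = 0.00351), and mutant high lay inside the range of mutant low (log2 fold change -0.35, SE 0.43, adjusted p = 0.576).

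Transcription factors of the mesenchyme supplied 13 members from a list of 37, of which 29 were tested. Of the 13, 11 were lower in mutant high than in mutant low, and 2, Six2 and Hoxc10, fell in mutant low against control low, next to 70.4% and 8.31% of all members and 13.2% and 3.21% of all loci. Of the 29 tested genes, 16 were lower and 1 higher in mutant high, and 3 fell and 4 rose in mutant low. Wt1, a zinc-finger regulator of the progenitor and later of the podocyte, had 53.6, 58.2, 76.5 and 94.1 CPM in control low and 4.16 and 2.42 in control high. Mutant low held 74.1, 63.2, 32.2 and 58.1 and mutant high 25.1 and 11.6. The low groups overlapped (log2 fold change -0.34, SE 0.28, adjusted p = 0.557) and mutant high was lower (log2 fold change -1.67, SE 0.38, adjusted p = 0.00394), with an adjusted p of 0.0668 on omitting mutant high replicate 2. Wt1os, its upstream antisense neighbour, gave a log2 fold change of -2.20 (SE 0.41, adjusted p = 0.000844) for mutant high against mutant low.

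Foxc1 and Zeb1 were called lower in mutant high, while Snai2 and Snai1 were not. Foxc1, a forkhead regulator of kidney mesenchyme, stood at 642, 550.2, 709.5 and 812 CPM in control low and 62.6 and 33.4 in control high. Mutant low held 592, 515, 402 and 626 and mutant high 253 and 129.8 (log2 fold change -1.54, SE 0.34, adjusted p = 0.00295 for mutant high against mutant low), with an adjusted p of 0.0601 on omitting mutant high replicate 2. Zeb1, a repressor of epithelial genes, had 33.9, 34.8, 65.4 and 65.5 CPM in control low and 23.5, 19.3, 26.2 and 31.8 in mutant low, groups that did not overlap though the test was not passed (log2 fold change -0.96, SE 0.31, adjusted p = 0.0743), and 7.63 and 3.47 in mutant high (log2 fold change -2.26, SE 0.43, adjusted p = 0.00105). Snai2, another repressor of epithelial genes, was the member of this list with the smallest difference between mutant populations. It had 62.7, 52.8, 55.4 and 64.5 CPM in control low, 56.9, 65.9, 34.0 and 42.0 in mutant low and 29.0 and 58.9 in mutant high, against 5.76 and 4.62 in control high (log2 fold change -0.19, SE 0.30, adjusted p = 0.674). Snai1 did not pass either (log2 fold change -1.33, SE 0.51, adjusted p = 0.0598).

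The largest run of members within 100 kb of each other was in the HoxC cluster, at chr15:102797295-102847860 in mm9, with Hoxc10, Hoxc9, Hoxc8, Hoxc6 and Hoxc5 in this order. HoxC genes give cells their position along the body axis. Hoxc10 measured 287, 189, 196 and 209 CPM in control low and 13.6 and 11.2 in control high. Mutant low held 128, 122, 142 and 112 and mutant high 49.7 and 32.9. Its fall between low groups passed the test (log2 fold change -0.78, SE 0.21, adjusted p = 0.03), a call lost without any 1 of control low replicates 1 and 4 and mutant low replicates 1, 2 and 4 (adjusted p 0.0575 to 0.1). Hoxc9, the next gene, stood at 224, 184, 274 and 333 CPM in control low and 203, 176, 274 and 300.5 in mutant low, ranges that overlapped nearly in full (log2 fold change -0.06, SE 0.26, adjusted p = 0.927), and fell to 78.4 and 55.3 in mutant high (log2 fold change -1.92, SE 0.35, adjusted p = 0.000819). Hoxc8 gave a log2 fold change of -0.17 (SE 0.35, adjusted p = 0.836) between low groups and gave a log2 fold change of -2.36 (SE 0.50, adjusted p = 0.00238) between mutant populations, and Hoxc6 gave a log2 fold change of -1.09 (SE 0.29, adjusted p = 0.0293) and gave a log2 fold change of -1.07 (SE 0.39, adjusted p = 0.0515) in the same order. The Hoxc6 fall between low groups was lost without any 1 of control low replicates 1, 2 and 3 and mutant low replicates 1, 3 and 4 (adjusted p 0.0676 to 0.111). Transcripts in this cluster lie close together, and the division of reads between them is the authors' estimate.

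Extracellular matrix genes gave 5 members of a list of 19, and all 5 were lower in mutant high than in mutant low, as were 70.4% of all members and 13.2% of all loci. Over the 14 tested genes of that list, 5 were lower and 5 higher in mutant high, with a median log2 fold change of 0.33. Vcan, the proteoglycan versican, held 444, 445, 708 and 349 CPM in control low and 14.4 and 9.23 in control high. Mutant low held 350.1, 333, 233 and 284 and mutant high 39.3 and 49.2 (log2 fold change -2.79, SE 0.32, adjusted p = 1.16e-05 between mutant populations). Fbn2, a fibrillin of elastic microfibrils, gave a log2 fold change of -2.25 (SE 0.30, adjusted p = 5.17e-05), and Fbn1, its relative, gave a log2 fold change of -1.31 (SE 0.42, adjusted p = 0.0261), with an adjusted p of 0.242 on omitting mutant high replicate 2 and of 0.0549 on omitting mutant low replicate 3. Tnc, tenascin C, was the 1 matrix member that fell in mutant low, from 398, 323, 311 and 249 to 253, 149, 136 and 155 CPM (log2 fold change -0.89, SE 0.23, adjusted p = 0.0258), a call lost without any 1 of control low replicates 1, 2 and 3 and mutant low replicates 2, 3 and 4 (adjusted p 0.0503 to 0.0799). It stood at 121 and 64.5 in mutant high (log2 fold change -0.94, SE 0.29, adjusted p = 0.0233), with an adjusted p of 0.254 on omitting mutant high replicate 2 and of 0.0569 on omitting mutant low replicate 1. Col2a1, the collagen of cartilage, varied widely between low libraries, with 118, 29.0, 30.1 and 44.2 CPM in control low, 14.5, 83.2, 12 and 58.5 in mutant low and 1.72 and 1.67 in mutant high (log2 fold change -4.65, SE 1.08, adjusted p = 0.00757), with an adjusted p of 0.075 on omitting mutant high replicate 1 and of 0.0691 on omitting mutant high replicate 2.

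Genes of DNA replication formed a further group, listed after values were seen: 24 of 29 reached the CPM minimum and 16 of these were members. Of the 16, 14 were lower in mutant high than in mutant low (median log2 fold change -1.70), next to 70.4% of all members and 13.2% of all loci. Over the 27 tested genes of the list 24 were lower and 0 higher. None of the 16 was called between low groups (edgeR, 2 higher and 0 lower at an unadjusted p under 0.05, and 0 called by DESeq2 or limma-voom), with a median of 0.31. Mcm5, a subunit of the replicative helicase, stood at 539.6, 463, 803 and 855 CPM in control low and 43.5 and 67.0 in control high. Mutant low held 739, 741, 902 and 1018 and mutant high 139.6 and 194. The low groups overlapped and both mutant high libraries lay below them (log2 fold change -2.41, SE 0.38, adjusted p = 0.000199). Mcm4, Mcm6 and Mcm7, which encode other helicase subunits, gave -1.48, -2.49 and -2.23 on the log2 scale for mutant high against mutant low. Cdc45, the helicase cofactor, had 169, 83.4, 136 and 134 CPM in control low and 9.76 and 14.5 in control high. Mutant low held 136, 127, 176 and 169.8 and mutant high 23.9 and 38.2 (log2 fold change -2.36, SE 0.37, adjusted p = 0.00021). Pold1, a DNA polymerase subunit, gave a log2 fold change of -1.49 (SE 0.38, adjusted p = 0.00752), with an adjusted p of 0.106 on omitting mutant high replicate 1. Gins1 and Rrm1 were the 2 replication members not called, and the 12 values of Rrm1 ran from 4.00 to 423 CPM with wide spread within groups.

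Dnmt1 and Uhrf1, which copy DNA methylation to new strands, were also in this group. Uhrf1 held 878, 840.1, 884 and 1085 CPM in control low and 99.7 and 93.9 in control high. Mutant low held 1185, 1110.5, 1463 and 1489 and mutant high 296 and 484. It was lower in mutant high than in mutant low (log2 fold change -1.81, SE 0.32, adjusted p = 0.00056), and its low groups, which did not overlap, did not pass the test (log2 fold change 0.54, SE 0.24, adjusted p = 0.217). Dnmt1 gave a log2 fold change of -1.28 (SE 0.32, adjusted p = 0.00634) between mutant populations. Of 4 cell-cycle members, Ccna2, cyclin A2, had 447, 327, 416 and 463 CPM in control low and 51.8 and 45.7 in control high. Mutant low held 553, 730.1, 786 and 597 and mutant high 187 and 257 (log2 fold change -1.65, SE 0.30, adjusted p = 0.000719 between mutant populations). Top2a, topoisomerase 2 alpha, was lower in mutant high (log2 fold change -0.94, SE 0.32, adjusted p = 0.0339), with an adjusted p of 0.313 on omitting mutant high replicate 1 and of 0.072 on omitting mutant low replicate 3. Ccnb1, cyclin B1, did not pass (log2 fold change -1.52, SE 0.62, adjusted p = 0.0822). Between low groups edgeR called 0 of the 4 (3 higher at an unadjusted p under 0.05), limma-voom called 0 and DESeq2 called 3 higher. Between mutant populations 3 of the 4 were lower in mutant high, next to 70.4% of all members and 13.2% of all loci. Over the 11 tested genes of the cell-cycle list, 6 were lower and 0 higher in mutant high.

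Some genes of striated muscle fell in mutant low cells. A list of 20 such genes, also drawn up after values were seen, so that its counts are a description only, had 9 members, every 1 of its genes that reached the CPM minimum on chromosomes 1 to 19. Of the 9, 7 fell in mutant low against control low, with a median log2 fold change of -1.43 against -0.06 over all loci tested. In mutant high against mutant low, 7 of the 9 were lower. Among all members these shares were 8.31% and 70.4%, and among all loci 3.21% and 13.2%. Of the 12 tested genes of the list, 7 fell and 1 rose in mutant low, and 7 were lower and 1 higher in mutant high. Another list of 8 muscle genes held 1 member, Des. Of its 5 tested genes 1 fell in mutant low, and 1 was lower and 1 higher in mutant high (median log2 fold change 1.45). Colq, the collagen tail of acetylcholinesterase, showed the largest fall of any member, from 10.5, 8.25, 12 and 10.4 CPM in control low to 0.671, 2.35, 0.406 and 0.649 in mutant low (log2 fold change -3.43, SE 0.44, adjusted p = 0.00021). Mutant high stood at 0.645 and 0.386 (log2 fold change -0.87, SE 0.67, adjusted p = 0.344).

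Tcap, telethonin of the sarcomere, was the 1 member with 0 fragments in both control high libraries. Its control low mean of 9.91 CPM is at least 35.7-fold higher than the floor of 3 fragments over the group, which allows for counting error only. It stood at 10.9, 9.87, 10.3 and 8.65 CPM in control low, 1.48, 2.35, 0.813 and 1.46 in mutant low and 0.322 and 0 in mutant high (log2 fold change -2.72, SE 0.37, adjusted p = 0.000427 between low groups). Des, desmin, was the most abundant, with 291, 313, 416 and 372 CPM in control low and 8.00 and 4.4 in control high. Mutant low held 173, 292, 102 and 115 and mutant high 44.6 and 26.7. Its low groups overlapped at 1 library (log2 fold change -1.05, SE 0.29, adjusted p = 0.0357), a call lost without any 1 of control low replicates 2, 3 and 4 and mutant low replicates 1, 3 and 4 (adjusted p 0.0521 to 0.122). Chrnd, an acetylcholine receptor subunit, gave a log2 fold change of -1.43 (SE 0.32, adjusted p = 0.0107) between low groups, Actn3, a sarcomeric actinin, gave a log2 fold change of -1.72 (SE 0.43, adjusted p = 0.0226), and Mybpc1, a myosin-binding protein, gave a log2 fold change of -1.18 (SE 0.30, adjusted p = 0.0242). Those calls were lost in at least 1 case: Chrnd without mutant low replicate 1 (0.0509), Actn3 without control low replicate 2, mutant low replicate 3 or mutant low replicate 4 (0.0682 to 0.0808), and Mybpc1 without control low replicates 3 or 4 or mutant low replicates 1 or 3 (0.0589 to 0.0721). Eno3, a muscle enolase, was not called between low groups. Chrna1, another acetylcholine receptor subunit on this list, was at 0 in all 12 libraries.

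Over all members, the levels in mutant low centred on those in control low. Against control low, 52 members (8.31%) fell and 31 (4.95%) rose, against 3.21% and 4.82% of all loci tested and 2.23% and 2.72% of loci with the same minimum that were not members. The median log2 fold change was -0.01. Because members were chosen for high control low values, a lean to lower values in mutant low is favoured by the choice. In 89 members (14.2%) every mutant low library lay below every control low library, against 5.95% of all loci tested, and in 70 (11.2%) every one lay above, against 7.78%. Members with a larger control ratio held more of the falls: 11 of 354 with a ratio of 8 to 16, 17 of 174 with 16 to 32 and 24 of 98 with 32 or more, though that ratio itself uses the control low values. Leaving out single libraries gave 30 to 48 falls and 16 to 48 rises.

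Outside the muscle and progenitor genes, 2 of the 6 largest falls were Traf1 and the gene AU015791. Traf1 had 11.4, 16.7, 17.4 and 16.6 CPM in control low and 4.16, 4.20, 2.44 and 2.92 in mutant low (log2 fold change -2.19, SE 0.27, adjusted p = 0.000137), and its mutant high libraries, at 3.55 and 2.70, lay inside the mutant low range (log2 fold change -0.16, SE 0.34, adjusted p = 0.76), with 1.76 and 1.10 in control high. AU015791 measured 9.76, 18.4, 18.2 and 11.7 CPM in control low and 0.32 and 0 in control high. Mutant low held 4.03, 2.02, 0.813 and 1.06 and mutant high 0.859 and 1.54 (log2 fold change -2.93, SE 0.44, adjusted p = 0.000659 between low groups). Of 8 listed PRC2 genes, all tested, 1 fell and 1 rose in mutant low, with a median log2 fold change of -0.15. Over all loci tested, 3.21% fell and 4.82% rose. The 1 member among the 8 was Phf19, an accessory subunit that guides PRC2 to chromatin. Its CPM was 27.8, 35.8, 27.9 and 20.5 in control low and 1.60 and 0.22 in control high. Mutant low held 12.7, 13.8, 3.25 and 7.87 and mutant high 3.12 and 4.11. The fall between low groups passed (log2 fold change -1.61, SE 0.38, adjusted p = 0.0146), with an adjusted p of 0.0522 on omitting mutant low replicate 4, and the difference between mutant populations did not (log2 fold change -1.37, SE 0.50, adjusted p = 0.0509). Phf19 and Traf1 lie within 100 kb of each other, at chr2:34749274-34769496 and chr2:34798777-34817292 in mm9. Nell1, whose upstream sequence is printed above and which was named for that reason, went from 307, 258, 153 and 223 CPM in control low to 75, 83.7, 52.2 and 60.1 in mutant low (log2 fold change -1.80, SE 0.32, adjusted p = 0.00253) and 11.4 and 7.07 in mutant high.

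Rises in mutant low cells were led by Fgf15, a fibroblast growth factor known as an intestinal hormone, which went from 7.79, 9.58, 6.18 and 11.6 CPM in control low to 40.9, 70.3, 74.6 and 53.6 in mutant low (log2 fold change 2.79, SE 0.43, adjusted p = 0.00106). Its mutant high libraries disagreed at 14.1 and 61.2 CPM, and control high held 0.48 and 1.10. Oxtr went from 9.52, 9.73, 18.9 and 19.1 to 76.5, 60.4, 90.6 and 86.0 CPM (log2 fold change 2.47, SE 0.30, adjusted p = 0.000117), with 34.2 and 40.1 in mutant high and 1.28 and 1.10 in control high. Fst, follistatin, which binds activin, went from 10.0, 7.07, 11.5 and 11.6 to 54.9, 39.0, 34.5 and 49.4 CPM (log2 fold change 2.14, SE 0.25, adjusted p = 0.000114) and was lower in mutant high at 13.8 and 12.9 (log2 fold change -1.78, SE 0.33, adjusted p = 0.000742). No mutant low library of these genes overlapped a control low library.

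Ccnd2, cyclin D2, which drives cells out of the resting state, went from 54.5, 59.2, 33.1 and 48.8 CPM in control low to 294, 188, 157 and 164 in mutant low (log2 fold change 2.02, SE 0.23, adjusted p = 6.89e-05), with 110.2 and 80.9 in mutant high and 4.00 and 4.18 in control high. Rmst, a long noncoding RNA of neural progenitors, went from 6.55, 20.2, 24.6 and 12.2 to 92.2, 45.9, 35.9 and 60.9 CPM (log2 fold change 1.88, SE 0.44, adjusted p = 0.0159), with an adjusted p of 0.0503 on omitting control low replicate 4. Meis1, a homeobox gene listed as a stromal marker, went from 28.4, 27.0, 38.5 and 41.8 to 85.5, 59.5, 79.4 and 84.9 CPM (log2 fold change 1.20, SE 0.25, adjusted p = 0.00627), with 51.8 and 44.2 in mutant high and 5.60 and 2.86 in control high. Of the 10 tested stromal genes, 3 rose in mutant low, against 4.82% of all loci tested. Col3a1, Lum, Postn and Col1a2 were not called in mutant low (log2 fold change -0.53 to -0.25). In mutant high against mutant low those 4 were higher by 2.51 to 4.41 on the log2 scale, whereas Meis1 gave a log2 fold change of -0.75 (SE 0.31, adjusted p = 0.0751). Meis2, its relative, was not called between low groups, with 70.3, 75.3, 80.8 and 53.1 CPM in control low and 61.9, 51.9, 46.9 and 40.7 in mutant low (log2 fold change -0.46, SE 0.18, adjusted p = 0.15). Sfrp2, shown above by its upstream sequence, went from 90.6, 94.8, 97.0 and 83.2 to 366, 307, 162 and 212 CPM (log2 fold change 1.50, SE 0.21, adjusted p = 0.000371), and Adgra1 from 6.18, 5.01, 5.36 and 6.96 to 15.6, 12.9, 12.8 and 13.8 (log2 fold change 1.23, SE 0.26, adjusted p = 0.00706).

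**Figure D4:**
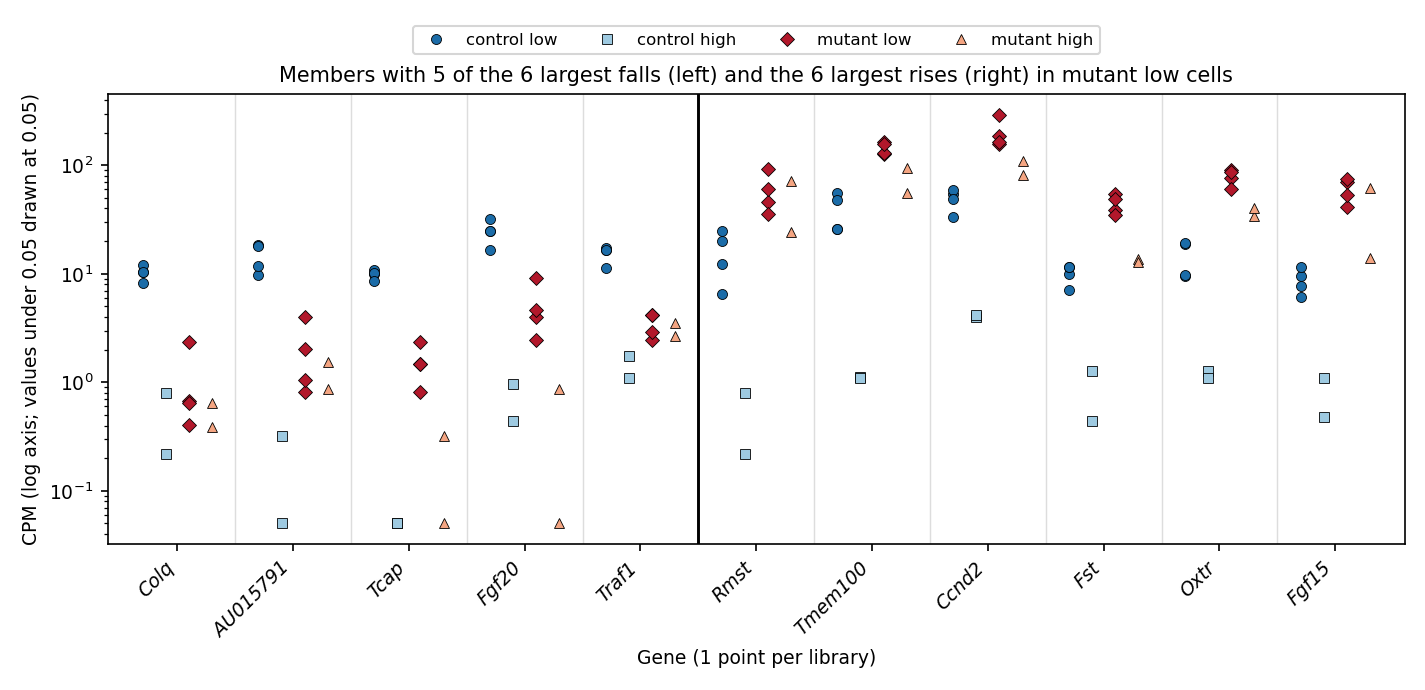
CPM (log axis) in each of the 12 libraries for members with 5 of the 6 largest falls (left of the line) and the 6 largest rises (right) between control low and mutant low, with 1 symbol per library and values under 0.05 drawn at 0.05. Colq goes from 8.25 or more in control low to 2.35 or less in mutant low, and Fgf15 from 11.6 or less to 40.9 or more.

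The members that separated the mutant populations most were Il33, Col2a1, Cdh22, C1ql4, Gm7534 and Gdnf. Cdh22, a cadherin, had the lowest adjusted p of the 6, with 159.7, 192, 216 and 213 CPM in mutant low and 11.2 and 8.61 in mutant high (log2 fold change -4.37, SE 0.41, adjusted p = 2.13e-06). In the controls it stood at 68.0, 59.1, 119 and 116 in low and 1.44 and 0.879 in high cells, and it rose from control low to mutant low (log2 fold change 1.13, SE 0.27, adjusted p = 0.0148), with an adjusted p of 0.0504 on omitting control low replicate 1. C1ql4, a secreted C1q-like protein, had 45.6, 102, 120.0 and 97.1 CPM in mutant low and 5.16 and 5.01 in mutant high (log2 fold change -4.25, SE 0.51, adjusted p = 2.05e-05), next to 68.8, 80.6, 145 and 129.6 in control low and 4.16 and 3.52 in control high. Il33, a nuclear cytokine, varied more, with 524, 514, 378 and 1041 CPM in control low, 497, 78.7, 121 and 821 in mutant low and 8.81 and 5.78 in mutant high (log2 fold change -5.75, SE 1.31, adjusted p = 0.00779), with an adjusted p of 0.0569 on omitting mutant high replicate 1 and of 0.0684 on omitting mutant high replicate 2.

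At the other end, 185 members were not called lower in mutant high. The 6 with the highest log2 fold changes were Meis3 (0.61), Adra1b (0.57), Prkg2 (0.43), uc009luw.1 (0.39), Phlda3 (0.37) and Cops5 (0.30), and none of these passed the test in either direction. Prkg2, a cyclic GMP-dependent kinase, stood at 27.8, 27.9, 37.4 and 35.3 CPM in control low and 3.68 and 2.42 in control high. Mutant low held 22.0, 28.1, 26.6 and 30.4 and mutant high 35.1 and 40.4. Its high libraries in the mutant lay above all mutant low libraries, so the order of the control populations was not seen (log2 fold change 0.43, SE 0.27, adjusted p = 0.238). Adra1b, an adrenergic receptor, fell between low groups from 15.4, 13.7, 13.8 and 14.0 to 5.50, 5.21, 4.27 and 5.60 CPM (log2 fold change -1.45, SE 0.26, adjusted p = 0.00223) and stood at 9.35 and 6.56 in mutant high and 1.28 and 0.44 in control high. Phlda3, a p53 target that restrains Akt, had 62.8, 59.8, 70.4 and 65.3 CPM in control low and 5.76 and 5.06 in control high. Mutant low held 140.1, 138, 65.0 and 84.9 and mutant high 153 and 128. Cops5, a subunit of the COP9 signalosome, ranged from 11.4 to 757 CPM within mutant low alone, and its place among the members rests on widely spread values.

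The 10 members with the highest control low mean included Mest, Tubb5, Mdk, Tsc22d1, Nt5dc2, Six2, Egr1, Grb10 and Gas1, by CPM, which is not corrected for transcript length. Mest, an imprinted gene of fetal growth, held 7178, 6798, 3794 and 5453 CPM in control low and 372 and 125 in control high. Mutant low held 4221, 5269, 3489 and 4361 and mutant high 1578 and 1669.5 (log2 fold change -1.46, SE 0.40, adjusted p = 0.013 between mutant populations), with an adjusted p of 0.104 on omitting mutant high replicate 1 and of 0.0738 on omitting mutant high replicate 2. Mdk, the growth factor midkine, gave a log2 fold change of -1.25 (SE 0.35, adjusted p = 0.014), with an adjusted p of 0.165 on omitting mutant high replicate 1. Gas1, a surface protein of Hedgehog and Gdnf signalling, fell between low groups in a call that held without any single library, from 1304, 1156, 1164 and 1177 to 642, 741, 303 and 507 CPM (log2 fold change -1.15, SE 0.22, adjusted p = 0.00436), with 213 and 170.3 in mutant high and 98.7 and 75 in control high. Grb10, an imprinted inhibitor of growth factor receptors, fell by 0.71 on the log2 scale (adjusted p = 0.043, edgeR), a call lost without any 1 of control low replicates 1, 2 and 4 and mutant low replicates 1, 2 and 4 (adjusted p 0.0623 to 0.142).

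Tsc22d1 and Egr1 were abundant members that were not called between the mutant populations. Tsc22d1, a leucine zipper factor, stood at 2788, 2668, 2019 and 2392 CPM in control low and 316 and 207 in control high. Mutant low held 2602, 3129, 2285 and 2776 and mutant high 1634 and 4870.0, so the mutant high libraries lay on either side of mutant low (log2 fold change 0.24, SE 0.36, adjusted p = 0.647). Egr1, an immediate early gene that responds to growth signals, had 1107, 1479.9, 1326 and 1634 CPM in control low and 169 and 84.4 in control high. Mutant low held 1608, 1200.1, 1759 and 2987 and mutant high 1373 and 1311 (log2 fold change -0.57, SE 0.39, adjusted p = 0.287).

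The members shared some features that the rule did not use, given as descriptions. Their median span was 28065 bases against 25524 for loci with the same minimum that were not members, and 22.0% spanned over 100 kb against 13%. Upstream windows could be read for 309 named members with exactly 1 RefSeq start. Their median ratio of observed to expected CG dinucleotides, which corrects for the C and G content, was 0.700, against 0.787 for 4493 non-members with the same CPM minimum and 0.363 for all 22862 genes of the table. A ratio of at least 0.6 was found in 64.4%, 78.6% and 33.9%. The CCAAT box (CCAAT on either strand) lay in 35.3% of the members' windows and 37.4% of the non-members'. An E2F site form (TTTCCCGC on either strand) lay in 2.27% and 2.36%, and another form (TTTGGCGC) in 1.62% and 0.935%. These differences were not tested.

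Markers of other cell types differed between the groups, not all in the same order. Summed over 6 tubule genes such as the transporter Slc34a1 and the endocytic receptor Lrp2, the level was 222.8 to 961 CPM in control low, 8930 to 10643 in control high, 16.3 to 76.4 in mutant low and 1825 to 1846 in mutant high. Ureteric bud genes summed to 56.2 to 135.3, 2328 to 3074, 60.7 to 130.3 and 531 to 883 CPM in the same order, and immune genes to 12.2 to 19.9, 74.4 to 84.6, 7.79 to 13.8 and 100.5 to 222 CPM. Stromal genes followed another order, with 193 to 261 CPM in control low, 108 to 134 in control high, 315 to 462 in mutant low and 640.2 to 701 in mutant high. Of 10 tested, 5 were higher in mutant high than in mutant low, against 19.0% of all loci tested. Podocyte genes summed to 36.8 to 62.4, 22.2 to 41.4, 110 to 195 and 94.2 to 305 CPM in the same order of groups. Of 3 tested, 2 rose in mutant low, against 4.82% of all loci tested. Commitment genes summed to 594 to 906, 327 to 348, 1660 to 2780 and 1037 to 1590 CPM in that order of groups. The 14 located progenitor markers summed to 3267 to 4122 CPM in control low, 72.3 to 156.8 in control high, 1714 to 2211 in mutant low and 456 to 504 in mutant high. Of the tubule, podocyte, ureteric bud, immune, endothelial and erythroid markers, 0 were members, and of the stromal markers Meis1 and Meis2 were. The part of these shifts in the members' levels was not tested.

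**Figure D5:**
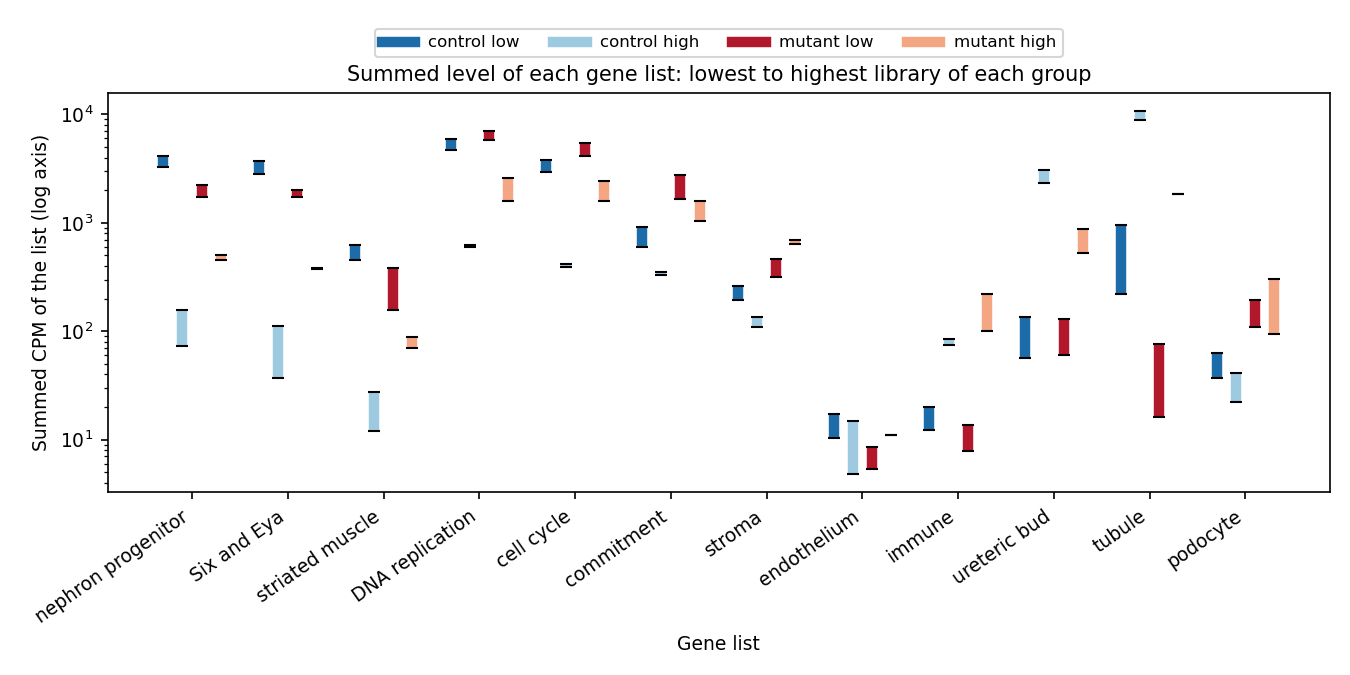
Summed CPM (log axis) of 12 gene lists, each bar running from the lowest to the highest library of a group. Progenitor genes run from 3267 to 4122 CPM in control low and from 456 to 504 in mutant high, while tubule genes run from 8930 to 10643 in control high and from 16.3 to 76.4 in mutant low.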

How the data were processed

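RNA of sorted newborn mouse kidney cells was measured in 12 libraries, grouped by their titles; the sample descriptions carry the same prefix in control and mutant libraries. The deposited table gives estimated counts (raw fragments) for 55418 transcripts with mm9 positions and no gene names. Per the file headers these are CuffDiff2 raw fragments, and the submitters' processing notes list Bowtie2, HTSeq, DESeq2 and mm9 but give neither their order nor a version. The 303 transcripts without a position held 0 fragments. No deposited column was of another sample.

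Transcripts overlapping on 1 strand were summed to loci and rounded to whole numbers. Totals of 4549011 to 12365078 fragments set the precision, and p-values measure the spread between libraries. Counts were tested with edgeR 4.0.16 in R 4.3.3 (TMM scaling, filterByExpr, robust quasi-likelihood F test, 1 fit of 4 groups, two-sided, Benjamini-Hochberg over 13749 loci, threshold 0.05), and the scripts were tested on simulated data. All 626 members passed the filter. Log2 fold changes have standard errors (SE) from the fit. DESeq2 1.42.0, limma-voom (limma 3.58.1), other scaling, filters, blocks and left-out libraries were alternatives. Control high against control low was not tested, because it chose the members. The comparisons share groups: mutant low enters 2 of them. No interaction was tested.

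Names came from GENCODE mouse release 21, which is on another build: a locus took a gene's name where its span, 1 end or at least 50% reciprocal overlap matched after a shift shared by at least 3 other loci within 2000000 bases, and no coordinate was converted. This named 577 of 626 members (169 by span, 284 by 1 end, 124 by overlap), and 7228 of 7228 anchor loci got the same name from their flanks alone. Loci with no name keep their transcript ID. RefSeq upstream windows (GRCm38.p6) matched 403 named members by symbol. A CpG ratio uses all 250 upstream bases.

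Named members are the 10 highest in control low, the 6 largest called falls and rises in mutant low against control low, the 6 lowest and 6 highest log2 fold changes of mutant high against mutant low, all members on the gene lists, and 3 loci on each side of the fold threshold. Members on the DNA replication, Six2 and Eya1 family and striated muscle lists, neighbours of listed members (Hoxc6, Hoxc5, Wt1os and Hoxa11os), and those whose upstream sequence is printed, were named after their values were seen. The members and lists were chosen with earlier results of these data known. Some members that this rule names are not reported here.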

Additional observations from a re-analysis of the deposited data

Results flagged for a closer look

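In 9 cases a value lay far from the other 3 libraries of its group by Dixon's test at 95%, out of 186 groups of 4 libraries examined, where chance gives about 1 in 20. Control low replicate 1 was the highest for Adra1b (15.4 CPM, the others 13.7 to 14.0), Gas1 (1304 CPM, the others 1156 to 1177) and Col2a1 (117.9 CPM, the others 29.0 to 44.2), and the lowest for Traf1 (11.4 CPM, the others 16.6 to 17.4). Mutant low replicate 2 was the highest for Colq (2.35 CPM, the others 0.406 to 0.671) and mutant low replicate 1 for Tnc (253 CPM, the others 136 to 155). Mutant low replicate 2 was also the highest for Rrm1 (351 CPM, the others 10.6 to 21.2), mutant low replicate 1 the lowest for Mcm4 (692 CPM, the others 747 to 752) and control low replicate 4 the lowest for Hoxc6 (5.42 CPM, the others 7.34 to 7.52).

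For 20 of the 93 members examined singly, and for 83 of all 626, every mutant low library lay below every control low library while both mutant high libraries lay above both control high libraries. The difference between the effects was not tested, and the rule used both control groups in the direction that favours this pattern. The share of all loci with this pattern was not counted, so nothing about the members is read from these counts. The log2 fold change in high cells minus that in low cells was 5.09 for AU015791, 4.70 for Bmper, 4.09 for Adra1b, 3.33 for Rspo1, 3.0 for Phf19, 2.86 for Eya1, 2.80 for Traf1 and 2.78 for Zeb1. For 6 members named after their values were seen it was 4.55 (Hoxc6), 3.52 (Eya4), 3.32 (Mybpc1), 3.16 (Chrnd), 2.48 (Nell1) and 2.27 (Actn3). It was 2.49 for Six2, 2.34 for Rspo3, 2.18 for Robo2, 2.03 for Hoxc10, 1.80 for Gas1 and 1.24 for Grb10.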

How the results depend on the processing

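The number of members was 1437 with a fold of 4 and 272 with a fold of 16. It ran from 430 (TMM-scaled CPM) to 783 (single transcripts) over the other planned choices and from 605 to 693 on leaving out single libraries; 579 loci met the rule with mitochondrial fragments left out of the total, an alternative added after seeing the data. Members lower in mutant high than in mutant low numbered 274 to 434 on leaving out single libraries and 379 to 461 under every other alternative. The count higher was 0 in each except the block on the description number, which gave 1. Falls in mutant low numbered 30 to 48, and rises 16 to 48, without single libraries; DESeq2 gave 68 and 57. Among low libraries with description numbers up to 7 there were 45 falls and 35 rises, and above 7 there were 46 and 36, added after seeing the data. Members higher in mutant high than in control high numbered 345 to 433, and those lower 0 to 1, without single libraries. Of 105 results called for the 93 members examined singly, 0 turned sign under any alternative. Of 81 that were not called, 28 did: 6 of 24 between mutant populations and 22 of 57 between low groups. Between mutant populations the ranges were -0.83 to 0.83 on the log2 scale for Tsc22d1, below 0 without mutant high replicate 2 alone, -0.86 to 0.24 for Snai2, -0.75 to 0.06 for Egr1, -1.35 to 0.31 for Rmst, -0.49 to 1.73 for Cops5 and -3.04 to 1.68 for Rrm1. Between low groups they included -0.13 to 0.25 for Fgfr1, -0.90 to 0.26 for Col2a1, -0.24 to 0.25 for Wnt4 and -0.81 to 0.25 for Wt1. The high groups hold 2 libraries each, and leaving 1 out assumes that the lone library varies like the other groups. The causes of these shifts were not tested. Depth limits the lowest loci, such as Tcap at 0 fragments in control high.

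Libraries of different groups share replicate numbers. With these numbers as a replicate block, 404 members were lower in mutant high than in mutant low, 67 fell and 42 rose in mutant low, and 514 were higher in mutant high than in control high. Correlations between libraries were taken on deviations from the mean of each group, not on the levels themselves. For same-numbered control low and mutant low libraries they were 0.05, 0.26, 0.10 and 0.43. Not every library correlated best with its own number. Between mutant low and mutant high the correlations were 0.22 and 0.13 for replicates 1 and 2, and -0.22 and -0.13 for these replicates crossed. With 2 mutant high libraries the crossed values mirror the others by construction. The numbers were not taken as pairs in the main fit. The numbers in the descriptions tie each mutant high library to the mutant low library of the same replicate number. They tie each control high library to a control low library of another replicate number. Whether a shared number means a shared animal is not stated. With the numbers in the descriptions as the block, 420 members were lower in mutant high. Among the members examined singly, the replicate block ended the calls of Tmem100 (adjusted p = 0.0857), Top2a (0.0836) and Oxtr (0.0533) between mutant populations and of Des (0.0512) and Phlda3 (0.0541) between low groups, and the block on the description number that of Tmem100 (0.0609), all by edgeR. Neither block ended another of these calls.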
